A study of Mus musculus with 12 samples.

Results

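Oxidative phosphorylation genes were followed through the transition of mouse embryonic stem cells (ESCs) to epiblast-like cells (EpiLCs). The genes were taken by name from the deposited counts, as nuclear genes whose symbol starts with Nduf, Uqcr, Cox4 to Cox8 or Atp5, the genes Sdha to Sdhd, and the protein genes of mitochondrial DNA (mtDNA), whose symbol starts with mt-. This gave 106 of the 22462 genes in the table, 93 nuclear and 13 mitochondrial, and all 106 are annotated as protein coding. By the known place of their products, 51 belong to complex I, 4 to complex II, 9 to complex III, 23 to complex IV and 19 to complex V, and 8 of the nuclear complex I genes encode assembly factors that leave the finished complex.

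The study set translation beside mRNA abundance as naive cells leave that state. ESCs were held in the naive state in serum medium with LIF and the 2i inhibitors PD0325901 and CHIR99021, and EpiLCs were harvested some 56 hours after withdrawal of LIF and 2i. From both cell types, total RNA and ribosome protected fragments (RPFs), which are stretches of mRNA that a bound ribosome guards from nuclease, were sequenced in 4 groups of 3 libraries, 12 in all. The labels do not name the cell line or say which cultures the replicates came from. The paper lists an ESC line with miR290-mCherry and miR302-GFP reporters for its differentiation experiment and calls its replicates biological. The p-values measure the spread between these libraries, which may in part be technical.

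Library totals lay between 2681439 counts (EpiLC RPF replicate 2) and 14655015 counts (replicate 1 of EpiLC total RNA). Levels are given below as CPM, counts relative to the TMM-scaled library total, which serve to compare a gene between libraries, and as RPKM, the same per kilobase of counted coding sequence, which serve to compare genes. The labels were met by the markers of both states. The summed total RNA CPM of 6 naive markers was 1098 to 1238 in ESCs and 44.1 to 73.1 in EpiLCs, and that of 6 formative and primed markers was 108 to 200 in ESCs and 1139 to 1221 in EpiLCs. Of markers of other cells, 5 neural genes summed to 128 to 157 CPM in ESC and 304 to 378 CPM in EpiLC total RNA, and 6 fibroblast genes, of which Postn had no count in either cell type, summed to 1.97 to 2.31 CPM and 12.8 to 14.9 CPM. In the same libraries 6 mesoderm genes summed to 11.7 to 13.8 and 5.16 to 7.95 CPM, 6 primitive endoderm genes to 4.12 to 5.56 and 13.5 to 20.7 CPM, and 5 genes shared by both pluripotent states to 2499 to 2760 and 1506 to 1677 CPM. The part of such cells in the changes below was not tested, and in bulk samples fewer cells of a type and less RNA per cell cannot be told apart.

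Oxidative phosphorylation makes ATP from the energy of electrons taken from NADH and succinate. Complex I passes electrons from NADH to ubiquinone, complex II does so from succinate as part of the citric acid cycle, complex III passes them on to cytochrome c and complex IV to oxygen. Complexes I, III and IV pump protons across the inner membrane, and complex V, the ATP synthase, lets them flow back through a rotating membrane ring that drives its catalytic head. Most subunits are encoded in the nucleus, translated on cytosolic ribosomes and imported, whereas a small set of membrane-embedded core subunits is encoded by mtDNA and made by mitochondrial ribosomes. Complex II has no mtDNA-encoded subunit. Naive and primed pluripotent cells are known for different balances of respiration and glycolysis.

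Not every gene of the set could be measured. Of the 106 genes, 90 (83 nuclear and 7 mitochondrial) passed the filter of at least 3 CPM in at least 3 libraries. The authors kept reads with a single mapping position, and many of these genes have near-identical pseudogene copies. To show how far that reaches, each window of 28 bases starting at a counted base was searched for in the annotated transcripts of other genes. For 68 of the 106 genes under 20% of windows had such a copy, and for 11 genes at least 90% did, of which only Ndufab1 and Ndufb4 passed the filter.

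The mtDNA genes are the clearest case, and 30-base stretches from them are shown because they mark which genes could receive reads. Coordinates are mm10, sequences run 5′ to 3′ on the strand of the gene, and capitals are not used. A stretch of mt-Co2, which encodes subunit 2 of complex IV, at chrM:7363-7392 is found letter for letter in the pseudogene Gm28661 at chr1:24615186-24615215.
mt-Co2: ctttgattcatatataatcccaacaaacga
Gm28661: ctttgattcatatataatcccaacaaacga
The same holds for mt-Co3, subunit 3 of complex IV, at chrM:9006-9035 and the pseudogene Gm28437 at chr1:24613543-24613572.
mt-Co3: acttcagtacttctagcatcaggtgtttca
Gm28437: acttcagtacttctagcatcaggtgtttca
mt-Co1, the catalytic subunit of complex IV, holds both kinds of sequence, a stretch at chrM:6264-6293 with a copy in Gm13340 on chromosome 2 (first) and another at chrM:5902-5931 with none in another transcript (second).
mt-Co1 shared: gcaattcctaccggtgtcaaagtatttagc
mt-Co1 unshared: ccgtactgctcctattatcactaccagtgc
Stretches without a copy are also shown for mt-Cytb, the cytochrome b of complex III, at chrM:14726-14755, and for mt-Nd6, at chrM:13776-13805, whose values below differ most from the other mtDNA genes and which alone among the 13 is read from the opposite strand.
mt-Cytb: cgttcacctcctcttcctccacgaaacagg
mt-Nd6: tgggttttttagtattgggggtgattatag

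Shared windows made up 100% of mt-Co2, 99.9% of mt-Co3, 99.5% of mt-Atp6, 98.9% of mt-Nd3 and 98.7% of mt-Nd4l, in each case with a pseudogene on chromosome 1. These 5 genes had 0 to 2 counts in each of the 12 libraries. mt-Atp8, a subunit of complex V, had 0 counts in each library although only 12.1% of its windows were shared with another transcript. The search covered transcripts and not the whole genome, so these shares are lower limits for reads of 28 bases. Per the study's methods, longer reads were kept for total RNA, for which the shares can be lower. The 7 mtDNA genes with counts had shares of 67.0% (mt-Co1), 61.6% (mt-Nd4), 19.5% (mt-Nd5), 16.4% (mt-Nd2), 11.4% (mt-Nd6), 8.86% (mt-Cytb) and 0% (mt-Nd1). A count near 0 for the 5 genes named first thus describes uniquely mapped reads and not the amount of the RNA. For mt-Atp8 the cause of the 0 counts was not tested, and they are not read as the amount of its RNA.

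Of the nuclear genes, 10 were not tested. Cox7c, Atp5l and Atp5g2 had 100% shared windows and Atp5g1 92.6%, and none of these 4 had more than 9 counts in a library. Cox7c and Atp5l encode small subunits of complexes IV and V that all cells need, and Atp5g1 and Atp5g2 encode the same subunit c of the membrane ring as Atp5g3, which has no shared window and reached 1637 ± 124 RPKM (SD, n = 3) in ESC RPF. The other 6 (Cox4i2, Cox6a2, Cox7b2, Cox8b, Cox8c and Ndufa4l2) are subunits or variants known from particular tissues or conditions and are taken up with complex IV below.

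**Figure D1:**
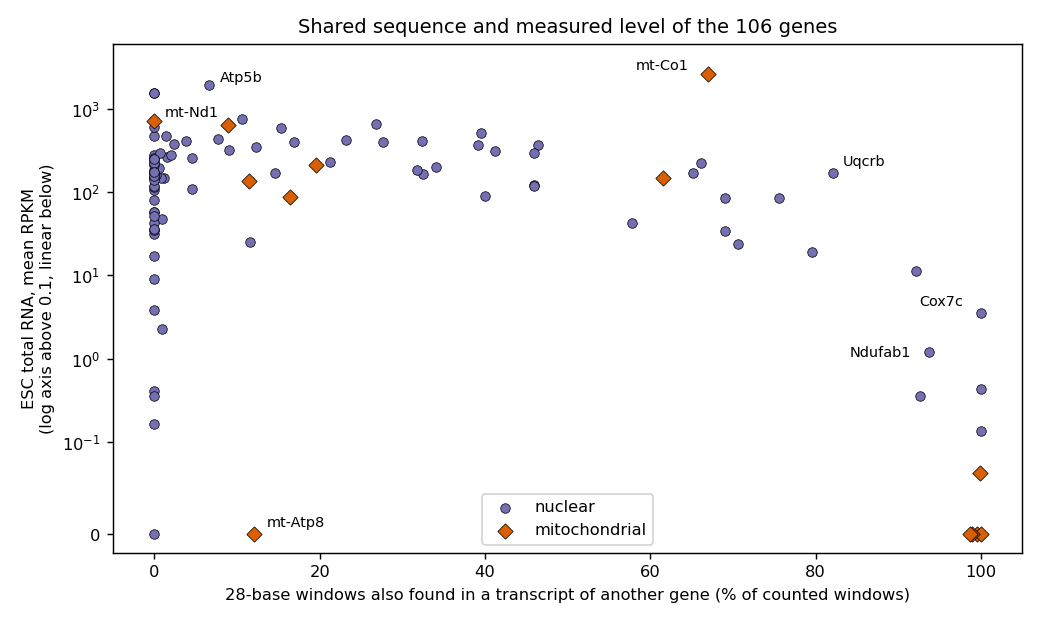
Each of the 106 genes is placed by the share of its 28-base windows that occur in a transcript of another gene (x axis, %) and its mean RPKM in 3 ESC total RNA libraries (y axis, log scale above 0.1 and linear below), with nuclear genes as circles and mtDNA genes as diamonds. The mtDNA genes near 100% lie at or close to 0 RPKM, mt-Atp8 lies at 0 with 12.1% shared, and mt-Co1 lies highest of all with 67.0% shared.

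Nuclear genes of oxidative phosphorylation fell more often than they rose from ESCs to EpiLCs, while mtDNA genes mostly rose. Of the 83 tested nuclear genes, 46 had lower and 4 higher total RNA at an adjusted p below 0.05 in limma, against 30.7% of all 11750 tested genes lower and 34.6% higher. The median log2 change of the 83 genes was -0.27, beside 0.03 for all tested genes. In RPF, 40 were lower and 7 higher, against 28.7% and 31.1% of all tested genes, with a median log2 change of -0.22 beside 0.01. Of the 7 mtDNA genes, 5 rose and 0 fell in total RNA, with 0 falling at an unadjusted p below 0.05 and in edgeR and DESeq2 as well, although DESeq2 called only 2 of the 5 rises. In RPF 5 of the 7 rose and 1 fell, and the median log2 change was 0.49 in total RNA and 0.84 in RPF. Adding the condition of a log2 change above 1 in size left 1 nuclear gene higher and 2 lower in total RNA (14.6% and 9.7% of all tested genes), and 1 higher and 3 lower in RPF (15.4% and 10.6%). The nuclear gene higher in both assays was Ndufab1, which passed the filter only through the EpiLC RPF libraries and so had to differ in RPF. Of the mtDNA genes, 3 were higher and 1 lower past that size in RPF.

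The libraries themselves show the same. The nuclear genes took 1.46% ± 0.03 (SD, n = 3) of all counts in ESC total RNA and 1.18% ± 0.05 in EpiLC total RNA, and 1.95% ± 0.02 in ESC RPF and 1.64% ± 0.02 in EpiLC RPF. In neither assay did the 3 libraries of a cell type overlap with those of the other. Considered gene by gene, 44 of 83 nuclear genes had all 3 EpiLC total RNA libraries below all 3 ESC libraries and 4 had them above, against 33.4% and 36.9% of tested genes. In RPF these counts were 41 and 7, against 30.9% and 32.2%. The picture was alike for the 56 tested nuclear genes with under 20% shared windows, of which 31 fell and 3 rose in total RNA and 28 fell and 4 rose in RPF.

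**Figure D2:**
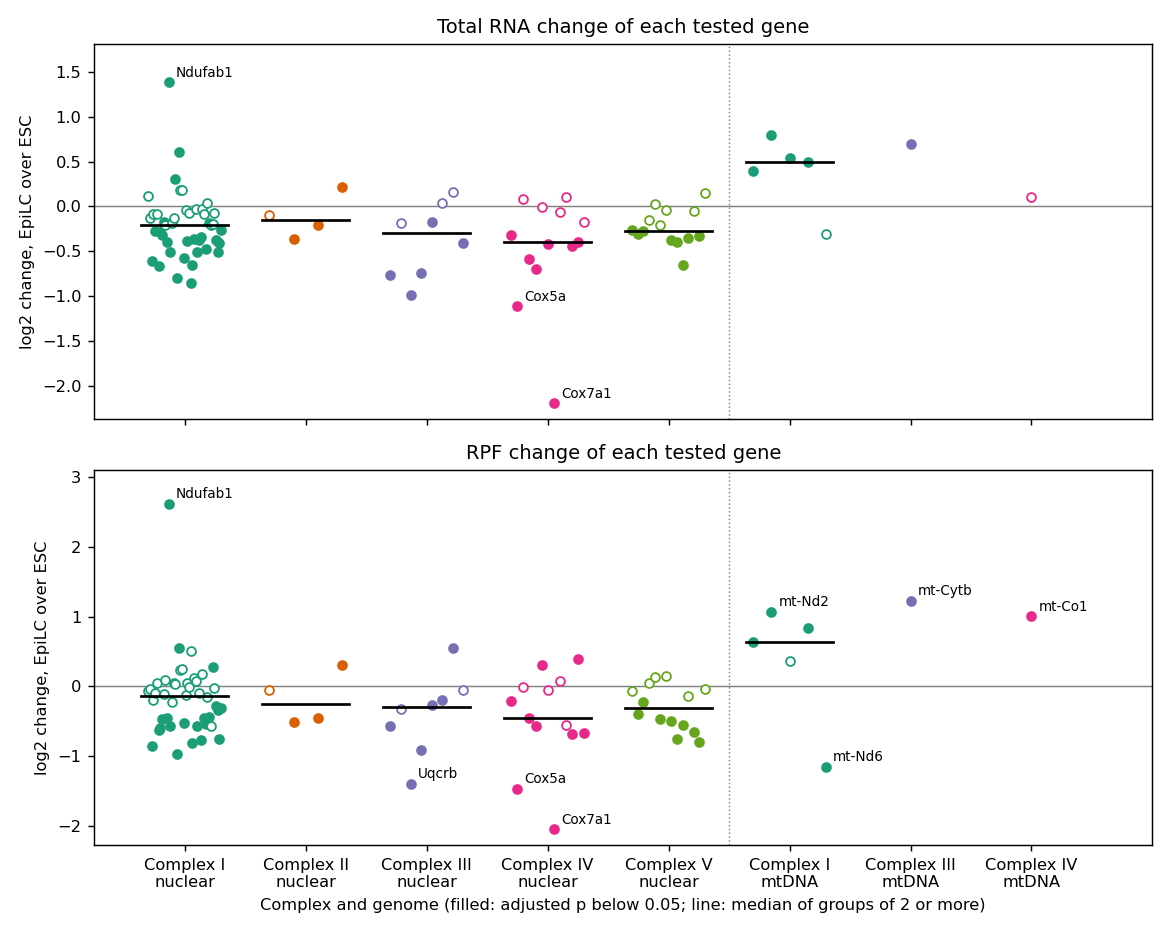
Log2 change from ESC to EpiLC (y axis) of each tested gene in total RNA (top) and RPF (bottom), by complex and genome, with filled points at an adjusted p below 0.05, lines at the median and names on genes that changed by more than 1 in size. Nuclear medians lie below 0 in all 5 complexes, at -0.13 to -0.45 in RPF, and the mtDNA genes lie above 0 in RPF except mt-Nd6 at -1.15.

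The mtDNA genes' share of counts varied between replicates. It was 0.658%, 0.595% and 0.582% in ESC total RNA and 0.722%, 0.864% and 0.653% in EpiLC total RNA, which overlap. In RPF it was 0.150%, 0.229% and 0.169% in ESCs and 0.374%, 0.230% and 0.365% in EpiLCs, so that the replicates numbered 2 of both cell types were almost level. Most of the total RNA share came from mt-Co1, whose own total RNA change did not pass the test. Gene by gene, 4 of the 7 had all EpiLC total RNA libraries above all ESC libraries and 0 below, against 36.9% and 33.4% of tested genes. For RPF these counts were 4 and 1, against 32.2% and 30.9%. EpiLC RPF replicate 2, which is also the shallowest library, had the lowest EpiLC RPF value for all 7 genes, EpiLC total RNA replicate 2 had the highest EpiLC total RNA value for all 7, and ESC RPF replicate 2 had the highest ESC RPF value for all 7. ESC total RNA replicate 1 was likewise highest and EpiLC total RNA replicate 3 lowest in its group for all 7. Without EpiLC RPF replicate 2 the median RPF change of the 7 genes was 0.95 in place of 0.84, and without EpiLC total RNA replicate 2 the median total RNA change was 0.38 in place of 0.49. Over all libraries left out in turn these medians ran from 0.65 to 0.95 and from 0.38 to 0.63.

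mt-Cytb, the only mtDNA-encoded subunit of complex III and part of both its quinone sites, showed the largest rise of the mtDNA genes in RPF. It stood at 289, 499 and 403 CPM in ESC RPF and at 1195, 581 and 946 CPM in EpiLC RPF, and at 709, 695 and 678 CPM in ESC and 1167, 1233 and 986 CPM in EpiLC total RNA. The groups did not overlap in either assay. Its log2 change was 1.23 ± 0.17 (SE) in RPF (adjusted p = 5.96e-07) and 0.69 ± 0.13 in total RNA (adjusted p = 7.05e-05).

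mt-Co1 carries the site where complex IV reduces oxygen. In RPF it went from 637, 947 and 718 CPM to 1543, 1083 and 1865 CPM with no overlap, a log2 change of 1.01 ± 0.13 (adjusted p = 5.73e-07). In total RNA it went from 4252, 3840.2 and 3718 CPM to 4071, 4817 and 3931 CPM, where the groups overlap, and the log2 change of 0.10 did not pass the test (adjusted p = 0.341, range of 2 SE -0.08 to 0.28). It was the only mtDNA gene whose RPF change differed from its total RNA change in limma's interaction test, by 0.91 ± 0.16 (adjusted p = 0.00531), which is its change in translational efficiency (TE, RPF divided by total RNA). DESeq2 gave 0.86 with an adjusted p of 0.0948 for the same difference. Between libraries of the same number, the log2 TE of mt-Co1 was -2.74, -2.02 and -2.37 in ESCs. In EpiLCs it was -1.40, -2.15 and -1.08, so the cell types overlap. Without EpiLC RPF replicate 2 the TE difference of mt-Cytb passed as well (0.78, adjusted p = 0.0239), where it was 0.54 (adjusted p = 0.243) with all libraries.

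The complex I subunits mt-Nd1, mt-Nd2, mt-Nd4 and mt-Nd5 belong to its membrane arm, which pumps protons. mt-Nd2 stood at 47.3, 52.1 and 37.3 CPM in ESC RPF and 107, 65.0 and 98.7 CPM in EpiLC RPF, and at 89.5, 83.0 and 83.8 CPM in ESC and 142, 219 and 113 CPM in EpiLC total RNA. Its log2 change was 1.07 ± 0.21 in RPF (adjusted p = 9.66e-05) and 0.79 ± 0.14 in total RNA (adjusted p = 3.16e-05), without overlap in either. mt-Nd5 rose from 188, 265 and 186 CPM to 439, 279 and 377 CPM in RPF, by 0.84 ± 0.15, and by 0.49 ± 0.12 in total RNA. mt-Nd1 rose by 0.39 ± 0.12 in total RNA and 0.63 ± 0.18 in RPF, with overlap of the groups in both, and its RPF call was lost without ESC RPF replicate 3 (0.45, adjusted p = 0.0533). mt-Nd4 rose by 0.54 ± 0.12 in total RNA, and its RPF change of 0.36 did not pass the test (adjusted p = 0.107, range of 2 SE -0.02 to 0.75) but did so without ESC RPF replicate 2 (0.48, adjusted p = 0.0362), without EpiLC RPF replicate 2 (0.48, adjusted p = 0.0336) and with a correction for GC content (0.59, adjusted p = 0.0109). In DESeq2 the total RNA calls of mt-Nd1 (adjusted p = 0.121), mt-Nd4 (0.0645) and mt-Nd5 (0.0553) were lost.

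mt-Nd6, a further membrane subunit of complex I, went the other way in RPF. It stood at 195, 277 and 231 CPM in ESC RPF and at 112, 80.2 and 111 CPM in EpiLC RPF, so that all 3 EpiLC values lay below all 3 ESC values. The log2 change was -1.15 ± 0.21 (adjusted p = 4.61e-05). In total RNA it stood at 88.7, 56.9 and 48.8 CPM in ESCs and 44.0, 96.8 and 37.8 CPM in EpiLCs, a change of -0.31 that did not pass the test (adjusted p = 0.214), and without EpiLC total RNA replicate 2, the high value, it was -0.61 (adjusted p = 0.00975). The gene lies at chrM:13552-14025 on the strand opposite to mt-Nd5 and mt-Cytb, and reads were counted on the sense strand.

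**Figure D3:**
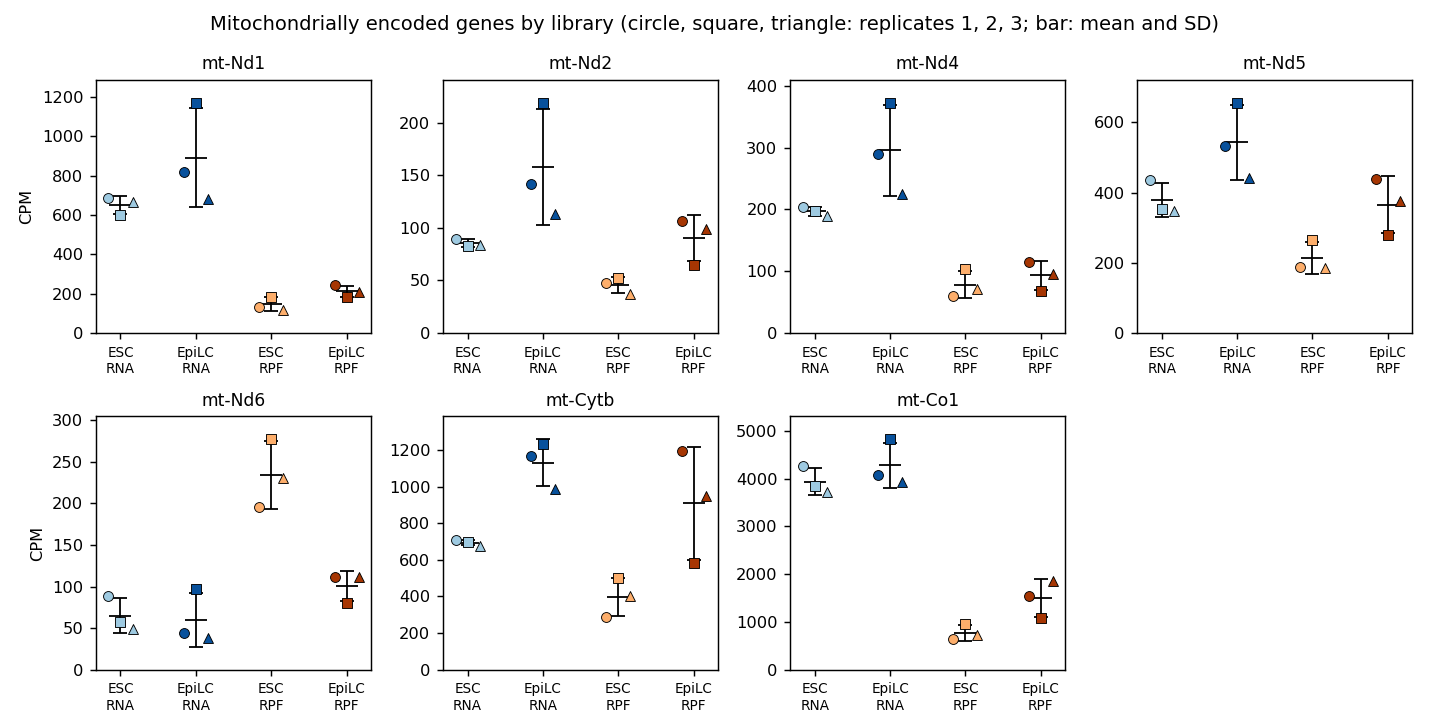
CPM (y axis, from 0) of the 7 measured mtDNA genes in each library of the 4 groups, with replicates 1, 2 and 3 as circle, square and triangle and bars for the mean and SD. EpiLC replicate 2 (square) is the highest in total RNA and the lowest in RPF for all 7 genes, and mt-Nd6 alone has higher CPM in RPF than in total RNA in ESCs.

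Nuclear and mtDNA genes also differed in the level of TE within a cell type. Levels of TE were taken as log2 RPF CPM minus log2 total RNA CPM of the library with the same replicate number. In ESCs the median of the 83 nuclear genes was 0.49, at the 75.3rd percentile of all tested genes, and 43 of the 83 lay above the 75th percentile. The median of the 7 mtDNA genes was -0.92, at the 16.1st percentile, and 6 of the 7 lay below the 25th percentile. In EpiLCs the medians were 0.46 and -0.78, and 4 of the 7 mtDNA genes lay below the 25th percentile. By replicate the EpiLC mtDNA median was -0.41, -1.75 and -0.23, so that replicate 2 stood apart. The median TE change of the 7 genes by replicate number was 0.61, -0.98 and 0.69. mt-Co1 was lowest among the mtDNA genes in ESCs, with log2 TE of -2.74, -2.02 and -2.37, and mt-Nd1 lay at -2.37, -1.69 and -2.51. mt-Nd6 was the exception, with a mean log2 TE of 1.89 ± 0.65 (SD, n = 3) in ESCs and 0.88 ± 0.996 in EpiLCs, where replicate 2 lay at -0.27. Mitochondrial ribosomes are a separate kind of ribosome, and the same footprint-length reads were kept for all genes. How completely these take in their footprints was not tested, so the TE of mtDNA genes is a ratio of counts and not a rate. Shared windows made up 67.0% of mt-Co1 and 0% of mt-Nd1. Their part in the ratio was not tested, nor was that of the longer reads kept for total RNA.

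Among nuclear genes, Uqcrq, a small subunit of complex III, had the highest mean TE in ESCs, with log2 TE of 2.24, 2.39 and 1.89 in ESCs and 2.52, 1.95 and 2.96 in EpiLCs. Atp5d, a subunit of the rotating stalk of the ATP synthase head, had 1.56, 1.71 and 1.65 in ESCs, and Ndufa4, a complex IV subunit that was long counted to complex I, had 1.59, 1.69 and 1.96. The 2 nuclear genes below the 25th percentile were Cox7a2l, with -2.03, -1.99 and -1.92 in ESCs, and Uqcrb, with -1.42, -1.88 and -1.67. Their shared windows made up 57.8% and 82.1%. The part of these in the ratio was not tested, nor was that of the longer reads kept for total RNA. By complex, the ESC medians of nuclear genes were 0.41 in complex I, 0.63 in complex II, 0.52 in complex III, 0.77 in complex IV and 0.47 in complex V, and 11 of 13 complex IV genes lay above the 75th percentile.

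**Figure D4:**
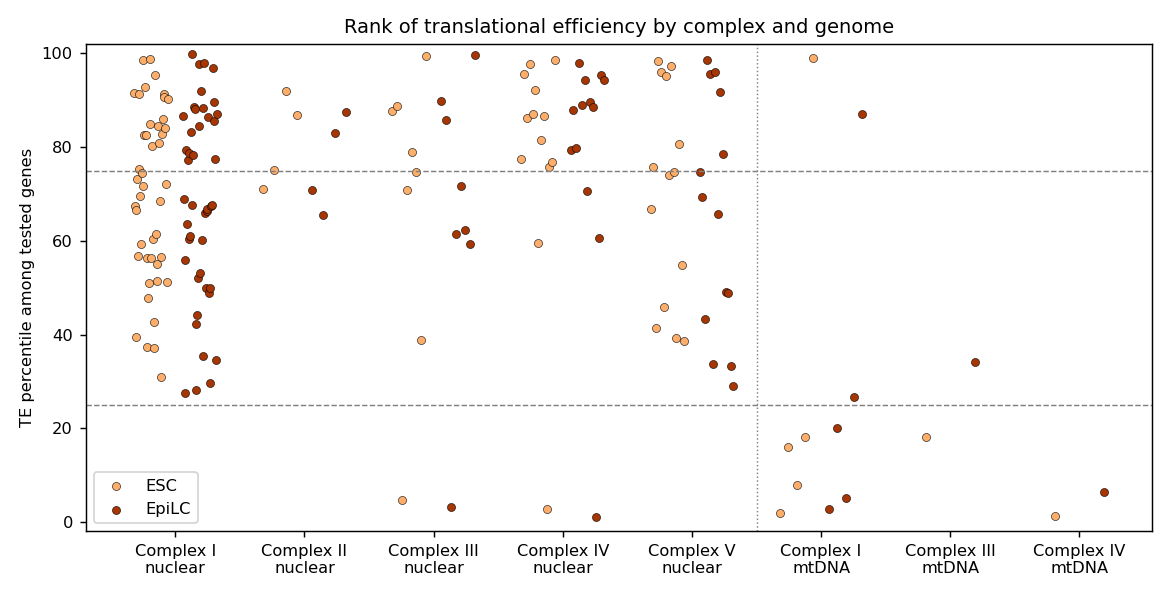
Percentile of each gene's mean log2 TE among the 11750 tested genes (y axis, dashed lines at 25 and 75) in ESCs (light) and EpiLCs (dark), by complex and genome. Nuclear genes crowd in the upper part of the range, and the mtDNA genes lie in the lower part except mt-Nd6 at 99.1 in ESCs and 87.0 in EpiLCs.

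Changes in TE were rare in this set as elsewhere. Of the 83 nuclear genes 1 had a higher and 2 a lower TE at an adjusted p below 0.05 in limma, against 0.57% and 0.63% of all tested genes, and 1 of 7 mtDNA genes had a higher TE. With the condition on size there were none (0.136% and 0.119% of all tested genes), and edgeR and DESeq2 also gave none, while 10 nuclear genes in each direction and 2 mtDNA genes upward and 1 downward had an unadjusted p below 0.05 in limma. The median TE change of the nuclear genes, 0.04, was negative in 3 of 8 other ways of processing and without 6 of the 12 libraries, left out in turn. In simulated data of the same size, a log2 TE change of 1 was recovered for 74.0% of changed genes. The changed genes were drawn from all tested genes, and sizes below 1, such as the TE differences called here, were not simulated. The simulation thus does not give how many changes of such size were missed in this set.

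Complex I takes electrons from NADH through a peripheral arm of nuclear-encoded core subunits. Of its 44 nuclear genes, all of which were tested, 23 fell and 3 rose in total RNA (median log2 change -0.21), and 18 fell and 3 rose in RPF (median -0.13). Counts here and for the other complexes stand beside 30.7% of all tested genes lower and 34.6% higher in total RNA. In RPF these shares of all tested genes were 28.7% and 31.1%. Of the 7 nuclear core subunits, 4 fell in total RNA and 5 in RPF, with medians of -0.37 and -0.34. Ndufv1, Ndufv2 and Ndufs1 are the parts that take up NADH and lead its electrons along iron-sulfur clusters. Ndufs1 stood at 292, 284 and 277 CPM in ESC RPF and 209, 199 and 212 CPM in EpiLC RPF, a log2 change of -0.45 ± 0.07 (adjusted p = 2.95e-06), but at 228, 220 and 225 CPM in ESC and 200, 227 and 211 CPM in EpiLC total RNA, where the change of -0.09 did not pass the test (adjusted p = 0.182) except with the GC correction (-0.18, adjusted p = 0.00442). The TE difference of -0.36 ± 0.09 passed in limma (adjusted p = 0.0435), was -0.38 in edgeR and -0.36 in DESeq2, and was lost with a correction for GC content (-0.25, adjusted p = 0.135). It was also lost with every gene that had a count (adjusted p = 0.0885) and at a minimum of 10 counts in every library (0.0524). It held without ESC RPF replicate 3 or EpiLC total RNA replicate 1 and was lost without each of the other 10 libraries (adjusted p 0.0563 to 0.11). Ndufv2 fell by 0.41 ± 0.07 in total RNA and by 0.75 ± 0.09 in RPF, and Ndufv1 fell by 0.51 ± 0.07 and 0.34 ± 0.08.

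Of the 29 accessory subunits of complex I, 17 fell in total RNA and 11 in RPF, with 1 and 2 rising. The largest fall in total RNA was that of Ndufb4 (-0.86 ± 0.32, adjusted p = 0.023), which had only 12 to 58 counts in a total RNA library and 92.2% shared windows, and whose call was lost without ESC total RNA replicate 1 (adjusted p = 0.0613) and without each EpiLC total RNA replicate (0.0512 to 0.0802). The RPF change of Ndufb4 was upward, at 0.06 to 0.73 with single libraries left out, and its RPF groups overlapped. Ndufb5, Ndufa11 and Ndufb10, membrane arm subunits with better counts, fell by 0.66 ± 0.08, 0.61 ± 0.12 and 0.57 ± 0.08 in total RNA and by 0.81 ± 0.10, 0.86 ± 0.15 and 0.53 ± 0.09 in RPF. Ndufab1, the acyl carrier protein of mitochondria, was counted higher in EpiLCs, at 8, 11 and 16 counts in ESC RPF and 38, 26 and 54 counts in EpiLC RPF. It passed the filter only through the EpiLC RPF libraries, so it had to differ in RPF, and 93.7% of its windows were shared with pseudogenes. Its log2 changes of 2.62 in RPF and 1.38 in total RNA thus describe few reads from a small part of the gene. Its total RNA call was lost without ESC total RNA replicate 2 (adjusted p = 0.0513) or 3 (0.196) and without EpiLC total RNA replicate 1 (0.0938) or 3 (0.0557).

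The 8 complex I assembly factors showed no common direction, with 2 higher and 2 lower in total RNA and 1 higher and 2 lower in RPF, and a median of 0.02 and 0.04. The share called lower, 25% in each assay, was near the 30.7% and 28.7% of all tested genes. Ndufaf5, which modifies the core subunit NDUFS7 during assembly, stood at 28.5, 29.6 and 26.1 CPM in ESC RPF and 19.7, 8.75 and 13.1 CPM in EpiLC RPF. It had the largest RPF fall among nuclear genes of complex I, by 0.96 ± 0.20 (adjusted p = 0.000211), and fell by 0.79 ± 0.13 in total RNA. Ndufaf6 rose from 41.4, 39.5 and 41.8 CPM to 65.8, 63.3 and 57.4 CPM in total RNA, by 0.61 ± 0.10 (adjusted p = 1.22e-05), and by 0.55 ± 0.13 in RPF. Neither gene has a shared window, and the ESC and EpiLC values did not overlap in either assay.

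Complex II, succinate dehydrogenase, has 4 subunits, and they did not move together. Sdhb, the iron-sulfur subunit, went from 196, 195 and 211 CPM to 151, 152 and 167 CPM in total RNA and from 265, 292 and 284 CPM to 203, 187 and 196 CPM in RPF, with log2 changes of -0.36 ± 0.06 (adjusted p = 2.44e-05) and -0.51 ± 0.07 (adjusted p = 1.13e-06). Sdhc, a membrane anchor subunit, fell by 0.21 ± 0.09 in total RNA and by 0.45 ± 0.09 in RPF. Sdhd, the other membrane anchor, went from 104, 93.2 and 114 CPM to 129.8, 122 and 136 CPM in RPF, a rise of 0.31 ± 0.09 (adjusted p = 0.00659). Its rise of 0.22 in total RNA (adjusted p = 0.0398) was lost in edgeR (adjusted p = 0.0535), in DESeq2 (adjusted p = 0.135) and without each library except ESC total RNA replicate 1 and EpiLC total RNA replicate 3 (adjusted p 0.0711 to 0.218), and its RPF call was lost without ESC RPF replicate 2 (adjusted p = 0.0719), without EpiLC RPF replicate 3 (adjusted p = 0.0676) and with the GC correction (adjusted p = 0.0534). Sdha, the catalytic flavoprotein, changed by -0.10 in total RNA and -0.06 in RPF and did not pass the test (2 SE ranges of -0.21 to 0.01 and -0.18 to 0.06). Per length, Sdhb stood to Sdha as 1.18 ± 0.04 (SD, n = 3) in ESC RPF and 0.855 ± 0.0887 in EpiLC RPF, and Sdhd stood to Sdha as 0.804 ± 0.0772 and 1.04 ± 0.08.

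In complex III, 5 of 8 nuclear genes fell in total RNA and in RPF, with medians of -0.30 in both, and Uqcrh alone rose in RPF. Uqcrc1 and Uqcrc2 encode the core proteins on the matrix side. Uqcrc1 stood at 659, 635 and 656 CPM in ESC and 395, 358 and 413 CPM in EpiLC total RNA, and at 859, 828 and 868 CPM in ESC and 463, 457 and 447 CPM in EpiLC RPF. Its log2 changes were -0.74 ± 0.05 (adjusted p = 4.88e-12) and -0.91 ± 0.06 (adjusted p = 9.80e-13), among the smallest p-values of the set. Uqcrc2 fell less, by 0.18 ± 0.06 and 0.27 ± 0.07, so that the RPKM of Uqcrc1 over that of Uqcrc2 went from 2.42 ± 0.02 (SD, n = 3) in ESC RPF to 1.56 ± 0.02 in EpiLC RPF. Uqcr10, a small subunit, fell by 0.76 ± 0.08 in total RNA and 0.57 ± 0.08 in RPF. Uqcrb, which binds ubiquinone, had the largest falls of complex III, by 0.98 ± 0.13 in total RNA and 1.39 ± 0.31 in RPF, from 18.8, 14.5 and 13.9 CPM to 6.01, 8.37 and 4.69 CPM in RPF, but 82.1% of its windows were shared. Uqcrh, the hinge protein that docks cytochrome c1, rose from 91.5, 95.9 and 99.5 CPM to 133, 157 and 137 CPM in RPF, by 0.55 ± 0.11 (adjusted p = 0.000146), while its total RNA change of 0.16 did not pass the test (adjusted p = 0.141) unless EpiLC total RNA replicate 2 was left out (0.29, adjusted p = 0.00178). Its shared windows made up 39.6%.

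Complex IV had the lowest nuclear medians, -0.39 in total RNA and -0.45 in RPF. Of its 13 tested nuclear genes, 8 fell and 0 rose in total RNA, with 0 rising at an unadjusted p below 0.05 and in edgeR and DESeq2, and 7 fell and 2 rose in RPF. Cox5a, an early-assembling subunit that pairs with Cox4i1 and lies at chr9:57521373-57531782, went from 273, 246 and 257 CPM to 128, 113 and 115 CPM in total RNA and from 574, 633 and 637 CPM to 233, 215 and 219 CPM in RPF. The log2 changes were -1.11 ± 0.07 (adjusted p = 4.86e-13) and -1.46 ± 0.07 (adjusted p = 5.35e-15), and every EpiLC value was below every ESC value. Cox4i1, its partner and the gene with the highest ESC RPF RPKM among nuclear complex IV genes with under 20% shared windows, fell by 0.32 ± 0.05 in total RNA and 0.21 ± 0.06 in RPF, so that the RPKM of Cox5a over that of Cox4i1 went from 0.70 ± 0.05 (SD, n = 3) to 0.294 ± 0.0354 in RPF. Cox5a had 26.8% shared windows and Cox4i1 had 0%.

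The largest fall of the whole set was that of Cox7a1, the form of subunit 7a known from heart and skeletal muscle, at chr7:30185088-30185967. It stood at 13.5, 11.5 and 13.4 CPM in ESC and 3.81, 2.24 and 1.83 CPM in EpiLC total RNA, and at 22.4, 15.3 and 22.5 CPM in ESC and 4.56, 4.94 and 5.25 CPM in EpiLC RPF. The log2 changes were -2.20 ± 0.27 (adjusted p = 1.49e-07) and -2.04 ± 0.30 (adjusted p = 1.90e-06), and it has no shared window. Its widely expressed counterpart Cox7a2 stood at 151, 145 and 167 CPM in ESC and 170.5, 156 and 163 CPM in EpiLC RPF and did not pass the test in either assay (log2 changes of -0.07 and 0.08, 2 SE ranges of -0.22 to 0.09 and -0.08 to 0.24). Per length, Cox7a1 amounted to 0.119 ± 0.0202 (SD, n = 3) of Cox7a2 in ESC RPF and 0.0278 ± 0.0028 in EpiLC RPF. Cox7a2l, the supercomplex factor related to both, had 6 to 35 counts in an RPF library, and its RPF change of -0.55 did not pass the test (adjusted p = 0.304) and was 0.13 without EpiLC RPF replicate 3.

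Of the other tissue-restricted forms, Cox6b2, known from testis, was the only gene to be tested. It went from 38.8, 41.9 and 41.0 CPM to 47.3, 45.6 and 55.2 CPM in RPF, a rise of 0.30 (adjusted p = 0.0299) that was lost in DESeq2 (adjusted p = 0.0673), with every gene that had a count (0.0674), with the GC correction (0.14) and without any of 5 RPF libraries (adjusted p 0.0564 to 0.286), while its total RNA values overlapped and did not pass the test (adjusted p = 0.988). Its counterpart Cox6b1 fell by 0.69 ± 0.10 in total RNA and 0.57 ± 0.10 in RPF, and Cox6b2 over Cox6b1 per length went from 0.0884 ± 0.0126 (SD, n = 3) to 0.158 ± 0.0057 in RPF. Cox4i2, the form of subunit 4 known from lung and low oxygen, had 20, 11 and 35 counts in ESC RPF and 7, 8 and 10 in EpiLC RPF, and Ndufa4l2, known from hypoxia, had 19, 6 and 18 and then 4, 2 and 3. The muscle form Cox6a2 had 2, 1 and 4 counts in ESC RPF and 0 in each EpiLC library, Cox7b2 had 0 to 4 counts in a library, Cox8c 0 to 3, and Cox8b none in any, where 3 counts correspond to 0.205 to 1.12 CPM depending on the library.

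Cox8a, a small subunit of complex IV, moved in opposite directions in the 2 assays. In total RNA it stood at 107, 101 and 88.0 CPM in ESCs and 81.1, 59.9 and 82.0 CPM in EpiLCs, a log2 change of -0.39 ± 0.10 (adjusted p = 0.00148). In RPF it stood at 143, 131 and 150.5 CPM in ESCs and 168, 191 and 205 CPM in EpiLCs, a change of 0.40 ± 0.10 (adjusted p = 0.00156). Neither pair of groups overlapped, and the TE difference was 0.79 ± 0.14 (adjusted p = 0.00534), which held in edgeR, in DESeq2 and without each library. With a correction for GC content its RPF change was -0.04 (adjusted p = 0.803) and the TE difference was 0.72 (adjusted p = 0.0223). The gene has only 165 counted bases at chr19:7215389-7217467. Ndufa4 fell in RPF by 0.66 ± 0.10 while its total RNA change of -0.18 did not pass the test (adjusted p = 0.136) unless ESC total RNA replicate 3 or EpiLC RPF replicate 1 or 3 was left out (adjusted p 0.0419 to 0.0434), with a TE difference of -0.49 (adjusted p = 0.0856). Cox6a1 and Cox7b, which are present in most tissues, fell by 0.58 ± 0.10 and 0.44 ± 0.11 in total RNA and by 0.45 ± 0.09 and 0.68 ± 0.13 in RPF.

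**Figure D5:**
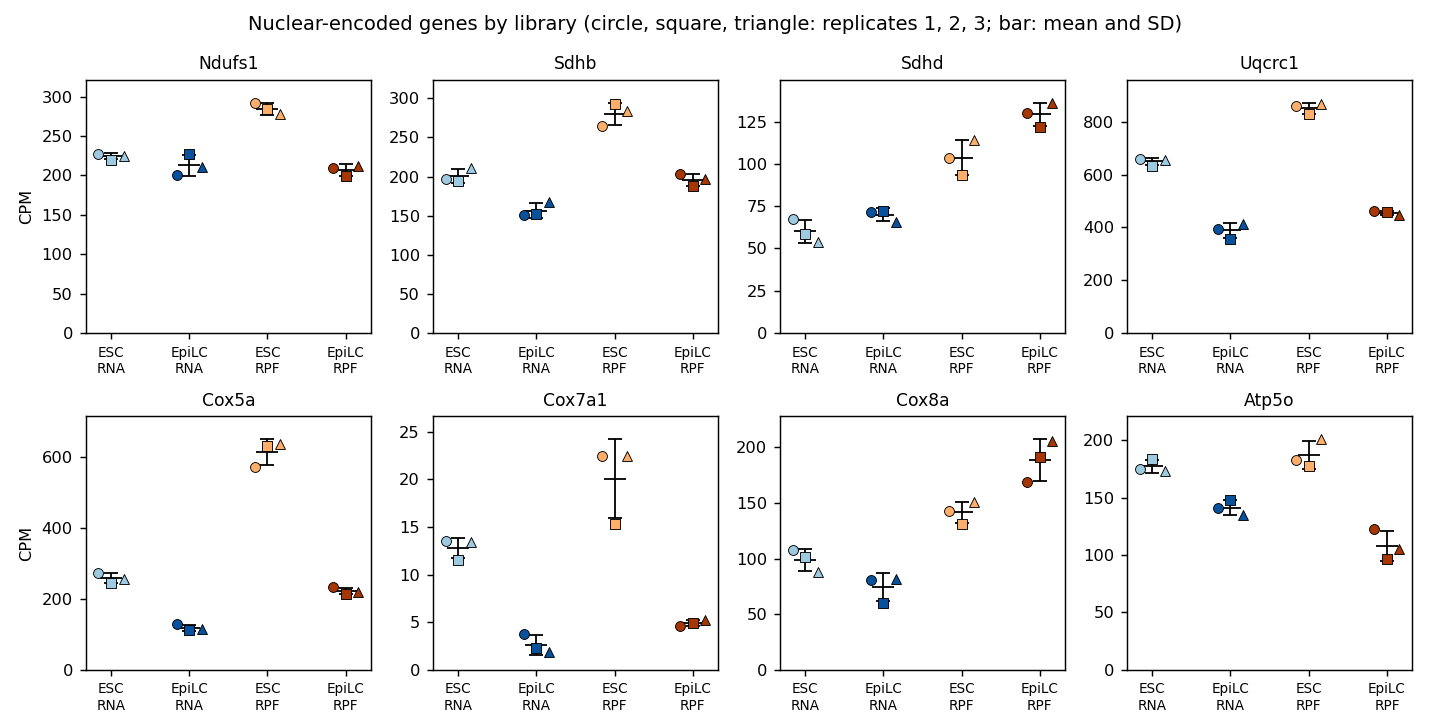
CPM (y axis, from 0) of 8 nuclear genes of complexes I to V in each library of the 4 groups, with replicates 1, 2 and 3 as circle, square and triangle and bars for the mean and SD. Sdhb, Uqcrc1, Cox5a, Cox7a1 and Atp5o fall in both assays without overlap, Sdhd is higher in EpiLC RPF, Ndufs1 falls in RPF and overlaps in total RNA, and Cox8a falls in total RNA and rises in RPF.

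In complex V, 8 of 14 tested nuclear genes fell and 0 rose in total RNA and in RPF, with medians of -0.27 and -0.31. No gene rose in either assay in edgeR or DESeq2, and 1 gene was higher in RPF at an unadjusted p below 0.05 in limma. The peripheral stalk holds the catalytic head still against the turning rotor. It fell throughout in RPF, in 4 of 4 genes with a median of -0.62, beside 28.7% of all tested genes lower. Atp5o, its top subunit that seats the head, stood at 175, 183 and 174 CPM in ESC and 141, 148 and 135 CPM in EpiLC total RNA, and at 183, 178 and 201 CPM in ESC and 122, 96.6 and 105 CPM in EpiLC RPF. The log2 changes were -0.33 ± 0.07 (adjusted p = 0.000173) and -0.79 ± 0.09 (adjusted p = 2.46e-08). The TE difference of -0.46 ± 0.11 (adjusted p = 0.0383) held in edgeR and DESeq2 but not with every gene that had a count (adjusted p = 0.0813). It was lost without ESC RPF replicate 3, EpiLC RPF replicate 2 or 3, EpiLC total RNA replicate 1 or 2 or any of the 3 ESC total RNA replicates (adjusted p 0.0572 to 0.128). Atp5j fell by 0.40 ± 0.09 and 0.75 ± 0.08 in total RNA and RPF, Atp5h by 0.37 ± 0.11 and 0.49 ± 0.13, and Atp5f1 by 0.47 ± 0.12 in RPF, with a total RNA change of -0.20 that did not pass the test (adjusted p = 0.0612). These 4 genes have 21.3% to 75.5% shared windows, and all but Atp5o were named after their values were seen.

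Of the 5 genes of the catalytic head, 3 were lower in total RNA and 2 in RPF, beside 30.7% and 28.7% of all tested genes. Atp5b, the catalytic beta subunit and the highest RPKM of complex V, stood at 2730.3, 2634 and 2725 RPKM in ESC RPF and 2066, 2115 and 1975 RPKM in EpiLC RPF, a fall of 0.40 ± 0.04 (adjusted p = 6.65e-09). Atp5a1, the alpha subunit that alternates with it in a ring of equal numbers, stood at 1999, 1828 and 1971 RPKM and 1739, 1895 and 1953 RPKM, and its RPF change of -0.06 did not pass the test (adjusted p = 0.36). The ratio of Atp5b to Atp5a1 in RPKM was 1.40 ± 0.04 (SD, n = 3) in ESC RPF and 1.11 ± 0.09 in EpiLC RPF, without overlap, and 1.23 ± 0.03 and 1.20 ± 0.09 in total RNA, where it overlapped. The central gamma subunit Atp5c1 was lower, with Atp5b over Atp5c1 at 7.71 ± 0.42 in ESC RPF and 4.76 ± 0.04 in ESC total RNA. The enzyme holds fewer copies of it than of alpha or beta. However, 27.7% of the windows of Atp5c1 were shared, so its level is a lower limit. Atp5d over Atp5c1 stood at 2.30 ± 0.14 in ESC RPF and 0.643 ± 0.033 in ESC total RNA. The part of copy number in these levels was not tested. Of the membrane subunits, Atp5j2 had the largest total RNA fall of complex V, by 0.66 ± 0.09 (adjusted p = 5.62e-07), and fell by 0.55 ± 0.10 in RPF. Atp5g3, the subunit c gene with counts, did not pass the test (log2 changes of -0.04 in total RNA and 0.15 in RPF, adjusted p = 0.62 and 0.0551), although the RPF change passed without EpiLC total RNA replicate 2 (0.16, adjusted p = 0.0433) and with the GC correction (0.14, adjusted p = 0.0473).

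Levels per length were set side by side for the subunits left by a limit on shared windows. In complex V this limit leaves out Atp5c1 and the peripheral stalk genes and keeps Atp5a1 and Atp5b, of which the enzyme holds more copies. The medians thus describe the genes left in and not the amounts of the complexes. Among subunits with under 20% shared windows, the median RPKM in ESC RPF was 260.2 in complex I (25 genes), 318 in complex II (4 genes), 609 in complex III (5 genes), 1149 in complex IV (5 genes) and 1408 in complex V (6 genes). Within complex I values ran from 98.6 RPKM for Ndufv3 to 653 RPKM for Ndufb6, and within complex II from 238 RPKM for Sdhd to 349 RPKM for Sdhb. Complex III ran from 215 RPKM for Uqcrfs1, the Rieske iron-sulfur protein, to 1042 RPKM for Uqcr10, complex IV from 745 RPKM for Cox7a2 to 2220 RPKM for Cox4i1, and complex V from 406 RPKM for Atp5mpl to 2696 RPKM for Atp5b. In ESC total RNA the order of the medians was 183 (I), 197 (II), 175 (III), 600 (IV) and 590 (V), and the first 3 lie close together. For the mtDNA genes the median RPKM was 159 ± 39.2 (SD, n = 3) in ESC RPF and 213 ± 27.5 in ESC total RNA, and mt-Co1 alone reached 2625 RPKM in ESC total RNA. These levels count uniquely mapped reads over the whole counted length and are lower limits for genes with shared windows.

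Promoters of the nuclear genes were searched for the motifs of factors known to drive respiratory genes. RefSeq promoters (GRCm38.p6, 250 bases before to 50 after the start) were found for 76 of the 93 nuclear genes. The motif of NRF1, which is GCGC, any base and TGCGC in a row, was present on either strand in 18 of the 76 (23.7%) and in 6.60% of 17491 coding promoters. The ETS motif bound by GABP, CCGGAAG, was present in 17 (22.4%) and 11.9% of all, and the YY1 motif, AAGATGGCG, in 7 (9.21%) and 1.94%. Motifs were counted separately, also where they share letters. The 17491 promoters were not limited to genes measured in these cells or matched to the set for base content. Windows of 30 bases around a match are shown for genes described above, on the strand of the gene with the motif in capitals. They lie at chr9:50603909-50603938 (Sdhd, NRF1), chr9:50603876-50603905 (Sdhd, ETS), chr13:74350319-74350348 (Sdha, NRF1), chr9:108936643-108936672 (Uqcrc1, NRF1), chr4:116075061-116075090 (Uqcrh, ETS) and chr19:7217602-7217631 (Cox8a, ETS).
Sdhd NRF1: tcgctggggtGCGCACGCGCggtggcagcg
Sdhd ETS: cgtctcctgcCTTCCGGttcacgcttcagg
Sdha NRF1: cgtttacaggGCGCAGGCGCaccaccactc
Uqcrc1 NRF1: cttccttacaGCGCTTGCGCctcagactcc
Uqcrh ETS: gtatgccgcaCTTCCGGccaggtcgccgga
Cox8a ETS: ttccgaaataCTTCCGGctcgggcgtccgg
The ETS windows and the NRF1 windows of Sdhd and Sdha hold the reverse complement of the motif as spelled, and that of Uqcrc1 holds it as spelled. The genes shown include Uqcrc1, which fell, Sdhd and Uqcrh, which rose in RPF, and Sdha, which did not pass the test, and a match says only that these letters lie in the window.

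Genes that work with the complexes were read from lists, beside 34.6% of all tested genes higher and 30.7% lower in total RNA and 31.1% and 28.7% in RPF. The shares called lower in total RNA were near that of all genes for the regulators (3 of 10), the mtDNA expression genes (33.3%) and the complex IV assembly genes (33.3%), and in RPF the last had 19.0% lower. Of 10 tested regulators of mitochondrial gene programmes, 4 rose and 3 fell in total RNA and 3 rose and 3 fell in RPF. The genes past the condition on size were Myc, higher by 3.63 ± 0.38 in total RNA and 3.82 ± 0.25 in RPF, and Esrrb, an orphan nuclear receptor of the naive network, lower by 4.998 ± 0.211 and 4.92 ± 0.20 on the log2 scale. Of 21 tested genes of mtDNA maintenance and expression, 2 rose and 7 fell in total RNA and 3 rose and 8 fell in RPF, with medians of -0.03 and -0.29. Of 17 genes of the citric acid cycle and pyruvate dehydrogenase, which feed the chain with NADH and succinate, 9 fell and 2 rose in total RNA and 11 fell and 2 rose in RPF, with medians of -0.29 and -0.26. Idh2, the mitochondrial NADP-dependent isocitrate dehydrogenase, was the gene past the condition on size, lower by 1.73 ± 0.07 in total RNA and 1.76 ± 0.08 in RPF on the log2 scale.

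Assembly factors outside the name rule were read in the same way. Of 21 tested complex IV assembly genes, 7 fell and 1 rose in total RNA and 4 fell and 2 rose in RPF, and Cox19 was past the condition on size in RPF (-1.06 ± 0.31, adjusted p = 0.00533). Of 11 complex I assembly genes, 3 fell and 1 rose in total RNA and 3 fell in RPF. Of 9 tested assembly genes of complexes II and III, 2 fell and 1 rose in total RNA and 1 fell and 1 rose in RPF, and of 5 of complex V, 1 fell and 1 rose in total RNA and 1 rose in RPF. Cyc1, the cytochrome c1 subunit of complex III that the name rule leaves out, did not pass the test in either assay (log2 changes of -0.14 and 0.10).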

How the data were processed

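Ribosome profiling and total RNA libraries of ESCs and EpiLCs (4 groups of 3) were analysed from the deposited raw counts per gene. Per the study's methods and the submitters' processing notes, the authors trimmed reads with cutadapt 1.14, aligned them to mm10 with STAR 2.5.3a, kept reads with a single position, and counted 5′ ends on the sense strand with featureCounts 1.5.3 in coding sequence without its first 45 bases. Handling of PCR duplicates is not given in the sources used here, so detection floors (3 counts) cover counting error only.

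Genes with at least 3 CPM in at least 3 libraries (11750) were fitted with limma 3.58.1 (voom, TMM from edgeR 4.0.16, R 4.3.3) in a model of 4 groups, with contrasts for total RNA, RPF and their interaction (TE), two-sided, with Benjamini-Hochberg adjustment over all tested genes. All adjusted p-values are from limma unless another tool is named. edgeR's quasi-likelihood test and DESeq2 1.42.0 were alternatives, as were other scalings, filters, single libraries left out, a replicate block and, added after seeing the data, a GC correction and RPKM per unshared window. The fit was tested on simulated data. Replicate pairs of a group differed by more than sampling noise (chi-square per degree of freedom 2.46 to 7.19), and replicate numbers were not treated as pairing the samples.

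The genes and lists were chosen with earlier results of these data known. Genes named are all mtDNA genes, tissue-restricted subunits with their counterparts, the subunit c genes, genes past the size condition or with a TE call, the largest rise and fall per complex, and the highest and lowest RPKM. Uqcrc1, Ndufaf6, Uqcrq, Atp5d, Ndufv1, Ndufv2, Ndufb5, Ndufa11, Ndufb10, Sdha, Sdhc, Uqcrc2 and the ATP synthase head and stalk genes other than Atp5o were added after their values were seen.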

Additional observations from a re-analysis of the deposited data

Results flagged for a closer look

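For 4 genes the change from ESC to EpiLC in RPF differed from that in total RNA by limma's interaction test, which compares the 2 assays directly. The difference on the log2 scale was 0.91 for mt-Co1, 0.79 for Cox8a, -0.46 for Atp5o and -0.36 for Ndufs1. Cox8a was the gene that passed under all alternatives tried for it.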

How the results depend on the processing

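Calls of higher total RNA numbered 4 in DESeq2 in place of 9. With the size condition, 0 genes were higher in total RNA and 2 in RPF at a minimum of 10 counts in every library, 2 were higher in RPF in DESeq2, and 5 were lower in total RNA with every gene that had a count. Lower TE calls numbered 0 with every gene that had a count, 1 at the 10-count minimum and 1 with the GC correction, which also gave 1 higher TE call past the size condition and a nuclear RPF median of -0.27. The nuclear TE median was -0.039 in edgeR, -0.025 in DESeq2 and 0.0096 at the 10-count minimum. The median nuclear ESC RPF RPKM was 251 with library totals in place of 259. Per unshared window, nuclear medians were 314 and 237 RPKM in ESC RPF and total RNA and 263 and 193 in EpiLCs, and mtDNA medians 392 and 589 in ESC and EpiLC total RNA. Total RNA reads were longer than these 28-base windows. Leaving out single libraries gave nuclear RPF medians of -0.29 to -0.21, nuclear TE medians of -0.037 to 0.043, 0 to 2 lower TE calls, and with the size condition 0 to 4 genes higher in RPF, 0 to 1 in total RNA and 0 to 1 in TE. Single genes that changed sign were Cox6b2 in total RNA (0.019 in edgeR, -0.074 to 0.090 without a library), Cox8a in RPF (-0.035) and mt-Nd4 in TE (0.046) with the GC correction, and without a library Atp5g3 in total RNA (-0.079 to 0.0015) and Cox7a2l in RPF (-0.97 to 0.13) and total RNA (-0.039 to 0.19). The cause of these differences was not tested. Same-numbered replicates correlated at -0.013 to 0.040 between cell types and -0.18 to 0.16 between assays, so pairing by number was not borne out in the data, although RPF and total RNA were collected as matched samples and TE levels set same-numbered libraries side by side. A replicate block gave each number an effect shared by both cell types and assays, so matching within a cell type was not modelled. It gave 8 higher and 47 lower calls in total RNA, 12 and 42 in RPF and 3 and 2 in TE. The nuclear TE median was then -0.014 and the Cox6b2 total RNA change 0.0016.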
